A study of Mus musculus with 101 samples.

Results

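Fatty acid oxidation genes of mouse white fat were followed here: 32 genes for the enzymes, carriers and nuclear receptors of mitochondrial and peroxisomal fatty acid breakdown, of 24475 genes counted. They were chosen by name, and all 32 were found through their Entrez identifiers and passed the low-count filter in every fit. The study asked how Inhbe acts on fat. Inhbe encodes a chain of activin E, a hepatic hormone of the TGF-beta family. Messenger RNA of the subcutaneous and the epididymal depot was sequenced from male mice on the C57BL/6NTac background. In the first experiment all mice were wild type, ate chow and had received an AAV8 vector meant to act in the liver; it carried GFP in 10 libraries per depot and mouse Inhbe (mInhbe) in 10. In the second no vector was given: wild-type (WT) and Inhbe knockout (KO) mice ate chow or a high-fat diet (HFD). The subcutaneous libraries numbered 8 for WT on chow, 7 for KO on chow, 7 for WT on HFD and 8 for KO on HFD. The epididymal ones numbered 8, 7, 8 and 8. The labels give no age, and they name libraries of the same group as biological replicates.

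A fatty acid is first joined to coenzyme A by an acyl-CoA synthetase such as Acsl1. Cpt1a, the outer carnitine palmitoyltransferase, then passes it to carnitine; this step is the main control point of the pathway and is blocked by malonyl-CoA. The translocase Slc25a20 and the inner transferase Cpt2 bring it into the mitochondrion, where rounds of dehydrogenation, hydration, a further dehydrogenation and thiolysis shorten the chain. Peroxisomes run a related cycle on long and branched chains, and the nuclear receptor PPAR alpha, the product of Ppara, drives many of these genes. White fat mainly stores fatty acids and releases them to other tissues, and oxidises few of them compared with brown fat.

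Library totals ran from 13 to 20.2, in units of 1e+06 estimated counts. Levels are given as CPM (counts scaled to a library total of 1e+06), and differences as log2 fold changes ± SE from edgeR's quasi-likelihood test with TMM scaling; a call means an adjusted p under 0.05 (Benjamini-Hochberg, over all genes tested). TMM moved a group difference from the plain CPM ratio by -0.10 to 0.26 (log2), most in the HFD comparisons of KO mice. Markers of other tissues were carried along in some libraries. The summed lymph node list reached 763 to 1584 CPM in the subcutaneous mInhbe libraries and 545 to 1179 in their GFP controls. Epididymal GFP library 8 held 3843 CPM of skeletal muscle markers and 1435 of brown fat markers, where its group's medians were 221 and 21.4. Epididymal WT HFD libraries 4 and 5 held over 1000 CPM of liver markers. Epididymis markers reached the highest sums: 3.32 to 11350 CPM in epididymal GFP libraries (library 7 lowest, the others from 3271), 2654 to 15160 with mInhbe and 0.867 to 5115 in WT on chow, but at most 1.31 in any subcutaneous library. The adipocyte list was high in every group, with sums of 11330 CPM or more. Inhbe itself was above 0 in all 20 libraries given mInhbe, at 0.240 to 46.0 CPM, and at 0 in all 20 GFP libraries. It was at or near 0 in fat of both genotypes, so that its level here does not check the knockout label.

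Per kilobase of exon, Acsl1 had the highest level of the 32 genes in every group, with group means from 128 to 331 CPM per kilobase. The electron transfer flavoprotein subunits Etfa (121 to 196) and Etfb (115 to 211) and the long-chain dehydrogenase Acadl (98.4 to 294) held the places after it. Among the other dehydrogenases, each of which takes chains of another length, Acadm had group means of 69.0 to 155 CPM per kilobase, Acadvl of 50.6 to 115 and Acads of 33.1 to 63.1. Per kilobase, Cpt2 (31.9 to 69.5) stood above Cpt1a (11.5 to 34.1) in every group except epididymal WT fat on HFD. There Cpt1a had 34.1 and Cpt2 32.7. This order rests on the exon lengths used, 7642 bases for Cpt1a and 2391 for Cpt2. In plain CPM Cpt1a stood above Cpt2 in epididymal WT fat on chow (155.6 and 92.56) and GFP fat (138.0 and 85.78). It stood below Cpt2 in subcutaneous GFP fat (94.99 and 166.1). The other places per kilobase rest on exon length as well. Hadhb (32.9 to 88.5) and Hadha (27.2 to 54.6), the chains of the mitochondrial trifunctional protein, were intermediate. Acot1, a cytosolic acyl-CoA thioesterase, was lowest in every group, at 0.103 to 2.36 CPM per kilobase. The members differed widely in how far their group means spread: Eci2, an enoyl-CoA isomerase, varied 1.36-fold between its lowest and highest group, Eci3 6.48-fold, the peroxisomal thiolase Acaa1b 9.04-fold and Acot1 22.8-fold.

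**Figure D1:**
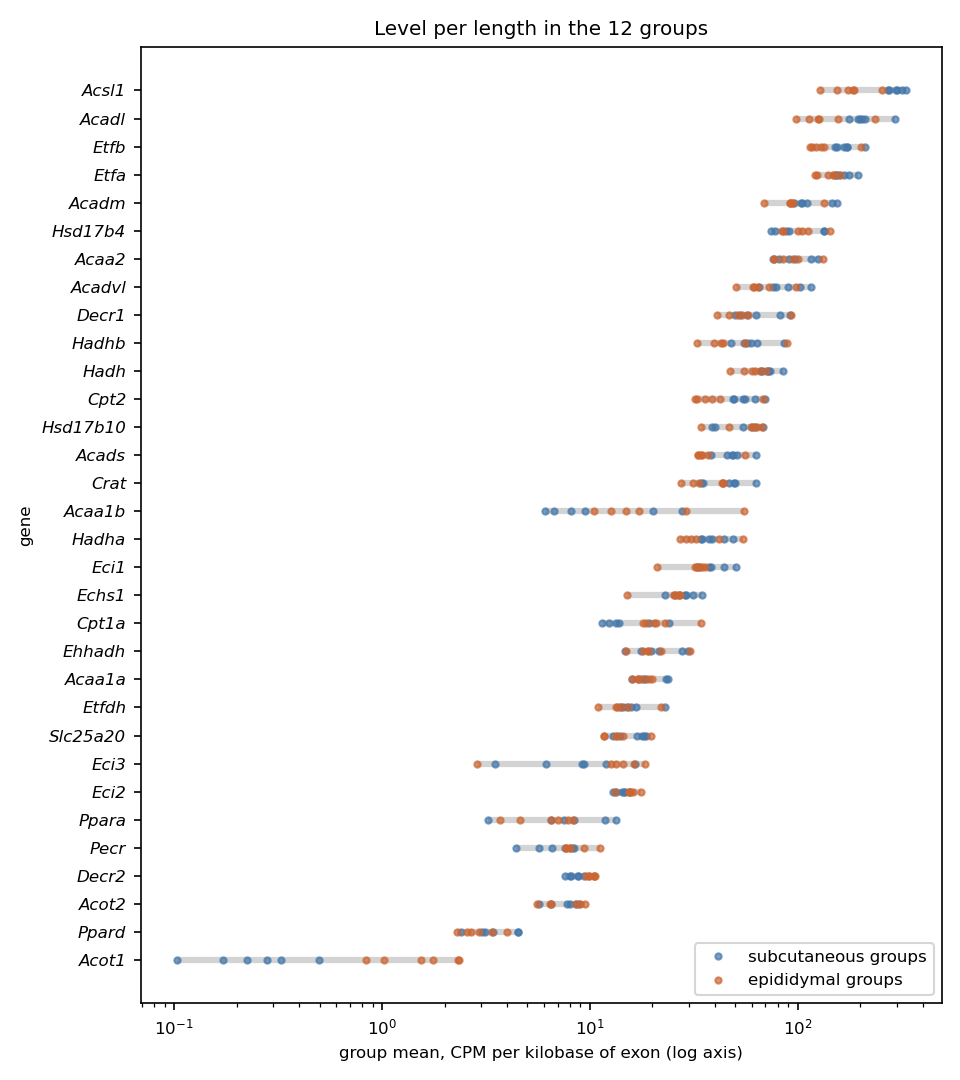
Mean level of each gene in the 12 groups, in CPM per kilobase of exon on a log axis; each point is a group mean, blue for subcutaneous and orange for epididymal fat, and the grey bar spans the groups. Acsl1 lies to the right and Acot1 to the left in every group, and Acaa1b, Eci3 and Acot1 have the widest spans. The order of the genes depends on the exon lengths used.

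In epididymal fat of mice on HFD, loss of Inhbe was accompanied by higher transcript of nearly the whole pathway, and by less of its gatekeeper. Of the 32 genes 28 rose and 1, Cpt1a, fell, where 17% of all genes tested were called higher and 20.2% lower. The median log2 fold change of the 32 was 0.69, beside 0.01 over all genes tested. All 4 chain-length dehydrogenases rose, as did all 6 genes of the later steps and all 3 of electron transfer. The 4 genes grouped here as peroxisomal (Acaa1a, Acaa1b, Ehhadh and Hsd17b4) rose too. Peroxisomal members that act on double bonds, such as Pecr and Decr2, were grouped with the double-bond enzymes, and of these Decr2 was not called. The genes not called were Decr2 (0.14 ± 0.09), the receptor Ppard (-0.16 ± 0.11) and Acot1 (-0.12 ± 0.49).

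Cpt2, the transferase of the inner membrane, had 68.6, 77.0 and 89.9 CPM (lowest, median and highest) in WT and 128, 146 and 244 in KO epididymal fat on HFD. It rose by 1.26 ± 0.14 (adjusted p = 2.08e-08 by edgeR), and no KO library overlapped the WT range. Ehhadh, the peroxisomal bifunctional enzyme, had 31.8, 45.2 and 55.3 CPM in WT and 76.8, 93.5 and 99.1 in KO. Its groups did not overlap either, and the rise was 1.20 ± 0.14 (adjusted p = 3.82e-08 by edgeR). Acadvl, which opens the cycle for very long chains, had 110, 137 and 155 CPM in WT and 202, 245 and 391 in KO, a rise of 1.16 ± 0.13 (adjusted p = 4.58e-08 by edgeR) without overlap. Eci3, an isomerase that helps unsaturated chains into the cycle, changed most: from 4.05 ± 3.10 CPM (SD, n = 8) in WT to 18.0 ± 3.55 (SD, n = 8) in KO, a log2 fold change of 2.33 ± 0.28 (adjusted p = 8.66e-08 by edgeR). The level of Eci3 in KO fat on HFD was near that of WT fat on chow, which had 20.5 ± 4.94 CPM (SD, n = 8). Of these chow libraries, 3, 5 and 8 held 1698, 5115 and 2524 CPM of epididymis markers and had 25.94, 26.38 and 26.15 CPM of Eci3. The others, with at most 22.45 CPM of those markers, had 15.4 to 20.5. With a score of the epididymis markers in the fit, all 29 calls for KO on HFD were kept, 28 higher and 1 lower. Eci3 was among them. How much of the Eci3 level in single libraries came from epididymis transcript was not tested.

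The entry steps did not move together. Acsl1 (0.71 ± 0.13), the translocase Slc25a20 (0.65 ± 0.12) and the acetyltransferase Crat (0.66 ± 0.15) rose with Cpt2. Cpt1a alone went the other way and fell by 0.39 ± 0.07 (adjusted p = 3.48e-05 by edgeR). Its libraries ran from 210 to 293 CPM in WT and from 149 to 208 in KO on HFD, so that the groups did not overlap. Cpt1a transcript was thus 261 ± 26.5 CPM (SD, n = 8) in WT fat on HFD, 176 ± 19.0 (SD, n = 8) in KO fat on HFD, and 156 ± 12.5 (SD, n = 8) in WT fat on chow.

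Among the dehydrogenases the rises were 1.16 for Acadvl, 0.96 for Acads, 0.78 for Acadl and 0.67 for Acadm on the log2 scale. In the later steps Echs1, the short-chain hydratase, rose most (1.02 ± 0.14). Hadhb and Hadha rose by 0.86 ± 0.12 and 0.58 ± 0.08, the short-chain hydroxyacyl dehydrogenase Hadh by 0.77 ± 0.12, the thiolase Acaa2 by 0.68 ± 0.13 and Hsd17b10, which also serves isoleucine breakdown, by 0.65 ± 0.12. Electrons from the dehydrogenases pass through Etfa and Etfb to the dehydrogenase Etfdh, and these rose by 0.54 ± 0.15, 0.93 ± 0.13 and 0.71 ± 0.10. Of the double-bond enzymes Eci1 (0.97 ± 0.14), Decr1 (0.88 ± 0.12), Pecr (0.66 ± 0.15) and Eci2 (0.61 ± 0.10) rose beside Eci3. The peroxisomal genes Acaa1b (1.12 ± 0.18), Hsd17b4 (0.55 ± 0.12) and Acaa1a (0.43 ± 0.12) rose beside Ehhadh. The mitochondrial thioesterase Acot2 rose by 0.39 ± 0.11, which did not pass the test when libraries were scaled by their totals (adjusted p = 0.0929 by edgeR). Ppara rose by 1.10 ± 0.21, and by 1.53 ± 0.13 without the WT HFD libraries 4 and 5, of which library 5 had the group's highest Ppara level, 35.5 CPM against a median of 11.4.

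**Figure D2:**
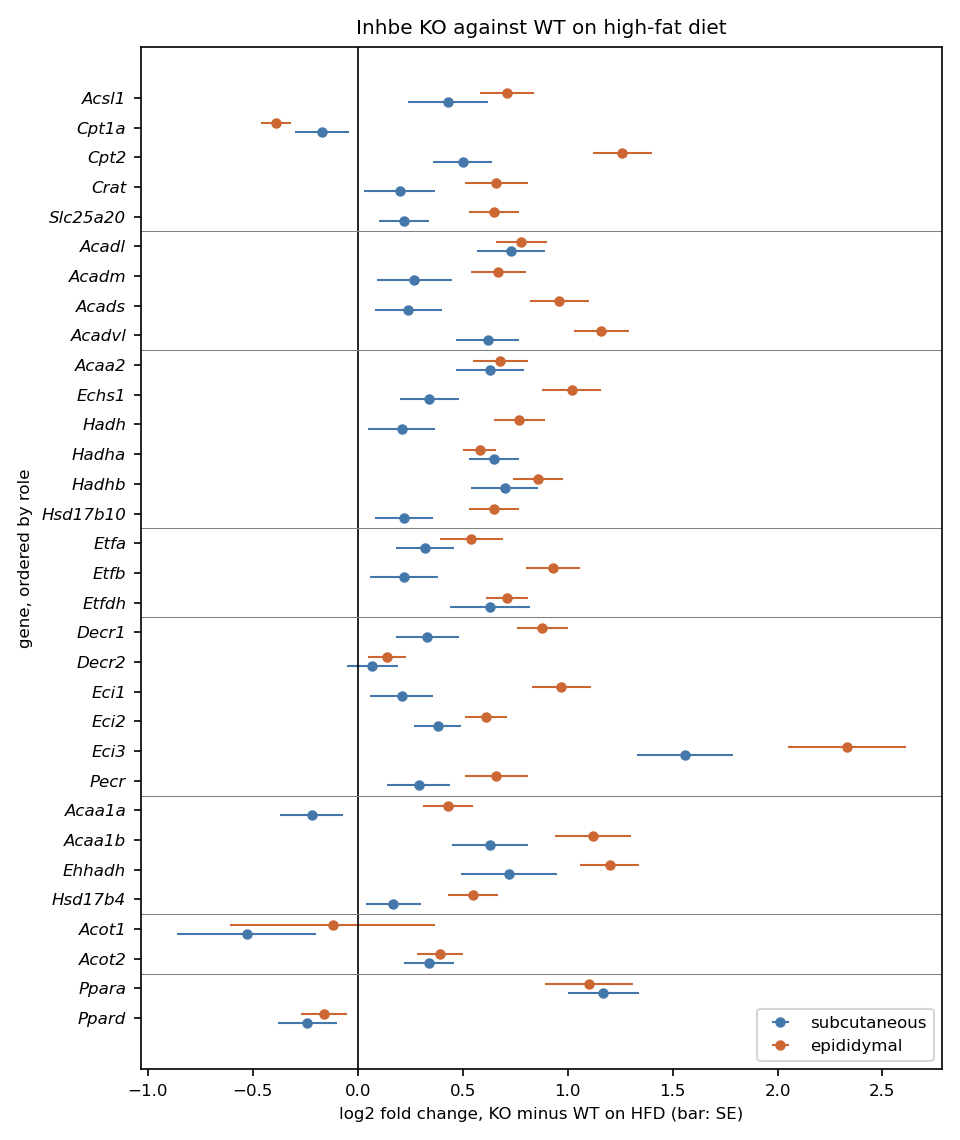
Log2 fold change of the 32 genes, KO minus WT on HFD, with its SE, in subcutaneous (blue) and epididymal fat (orange), ordered by role. In epididymal fat 28 genes lie right of 0 and were called, and Cpt1a lies left of 0 in both depots, called in epididymal fat.

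Markers of cell types moved in the same comparison. Of 10 adipocyte markers 9 rose (median log2 fold change 1.01), and 9 of 10 macrophage markers fell (median -1.37). Summed macrophage markers were 5346 to 7758 CPM in WT and 1027 to 2373 in KO epididymal fat on HFD, without overlap. Summed adipocyte markers were 13840 to 21670 and 23810 to 32890 CPM. Brown or beige fat markers summed to 24.0 to 32.0 CPM in WT and 53.6 to 87.9 in KO, without overlap. Progenitor and fibroblast markers summed to 2840 to 3588 and 1510 to 2848 CPM, with a small overlap. In bulk tissue fewer adipocytes and less RNA per adipocyte cannot be told apart, and the part of cell content in these rises was not tested. Cpt1a was lower in the KO group, which had more adipocyte and less macrophage transcript than WT. Its relation to these markers over single libraries was not tested. Epididymal KO HFD library 4 lay far above its group in 9 of the 32 genes; without it 28 genes were called higher and 2 lower.

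Other genes of the pathway were taken from a separate list. Of 60 that were tested in epididymal fat on HFD, 42 rose and 5 fell in KO. All 16 citric acid cycle genes rose (median 0.89), and so did all 11 of the list of further mitochondrial dehydrogenases and of the ends of odd and branched chains, such as the propionyl-CoA carboxylase chains Pcca (1.30 ± 0.12) and Pccb (1.10 ± 0.12). Acaca and Acacb, whose product malonyl-CoA blocks Cpt1a, rose by 2.11 ± 0.21 and 1.99 ± 0.23, and Mlycd, which breaks malonyl-CoA down, by 0.80 ± 0.15. Cpt1b, the muscle and brown fat form of the outer transferase, rose by 0.93 ± 0.20, opposite to Cpt1a. Its level was low: the 8 brown or beige fat markers, which include it, together summed to at most 32.0 CPM in WT and 87.9 in KO. Library 1 of this KO group held 1304 CPM of skeletal muscle markers, and the part of muscle in the rise was not tested.

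Hadha and Hadhb, the chains of the trifunctional protein both higher in the KO groups on HFD, lie head to head on chromosome 5 (GRCm38.p6). Hadha on the minus strand starts at 30154980 and Hadhb on the plus strand starts at 30155253, with 272 bases between. The window from 250 bases before to 50 after the start of Hadhb, from the RefSeq table, covers nearly all of that stretch and is shown because it is shared by both genes. It is chr5:30155003-30155302, plus strand.
Hadhb: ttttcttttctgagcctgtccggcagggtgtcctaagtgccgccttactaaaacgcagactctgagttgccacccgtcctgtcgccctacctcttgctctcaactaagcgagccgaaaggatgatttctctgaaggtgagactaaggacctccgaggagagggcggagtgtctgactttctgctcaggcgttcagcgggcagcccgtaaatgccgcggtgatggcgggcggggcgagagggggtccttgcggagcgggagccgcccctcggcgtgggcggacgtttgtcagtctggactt

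For 28 of the 32 genes such a window was used here, and windows were searched on both strands for letters that PPAR alpha and other factors of this pathway are known to prefer. The DR1 element, AGGTCANAGGTCA with up to 2 mismatches, was found in 4.4% of 27025 genes and in 3 of the 28: Echs1, Etfa and Slc25a20. The ERR element TCAAGGTCA, without mismatch, was in 0.466% of genes and 0 of the 28. CCAAT was in 41.1% and 15 of the 28, and the NRF1 element GCGCANGCGC in 5.19% and 3 of the 28 (Etfdh, Etfb and Ppara). The motifs overlap in part, since ERR and DR1 share the letters AGGTCA. A match is a description of letters, not of binding. The 3 windows with a DR1 match, of genes that rose in KO epididymal fat on HFD, are shown with the match in capitals. Of 24 genes that rose there and have a window, 21 have no DR1 match. The window of Cpt1a, which fell there, is shown because its direction stood alone; it has no DR1 match either. They are chr7:140116372-140116671 (Echs1, minus strand), chr9:55512194-55512493 (Etfa, minus strand), chr9:108661886-108662185 (Slc25a20, plus strand) and chr19:3323051-3323350 (Cpt1a, plus strand), each written 5′ to 3′ of its gene.
Echs1: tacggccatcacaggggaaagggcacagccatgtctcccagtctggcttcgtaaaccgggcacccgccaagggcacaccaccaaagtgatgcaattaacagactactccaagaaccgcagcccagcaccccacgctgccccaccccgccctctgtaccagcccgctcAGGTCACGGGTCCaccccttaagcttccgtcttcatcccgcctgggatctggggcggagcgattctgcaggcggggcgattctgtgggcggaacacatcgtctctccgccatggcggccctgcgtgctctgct
Etfa: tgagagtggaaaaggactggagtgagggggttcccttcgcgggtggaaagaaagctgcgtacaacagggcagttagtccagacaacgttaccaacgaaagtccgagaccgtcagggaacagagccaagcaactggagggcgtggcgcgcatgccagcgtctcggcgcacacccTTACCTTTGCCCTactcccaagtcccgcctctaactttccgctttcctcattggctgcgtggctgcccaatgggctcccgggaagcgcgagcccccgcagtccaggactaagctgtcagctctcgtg
Slc25a20: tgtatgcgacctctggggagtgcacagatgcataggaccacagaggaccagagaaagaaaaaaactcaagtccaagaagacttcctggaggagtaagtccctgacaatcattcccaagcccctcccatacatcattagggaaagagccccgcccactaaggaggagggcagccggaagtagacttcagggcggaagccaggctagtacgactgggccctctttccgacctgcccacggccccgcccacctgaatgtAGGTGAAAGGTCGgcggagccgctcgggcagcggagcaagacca
Cpt1a: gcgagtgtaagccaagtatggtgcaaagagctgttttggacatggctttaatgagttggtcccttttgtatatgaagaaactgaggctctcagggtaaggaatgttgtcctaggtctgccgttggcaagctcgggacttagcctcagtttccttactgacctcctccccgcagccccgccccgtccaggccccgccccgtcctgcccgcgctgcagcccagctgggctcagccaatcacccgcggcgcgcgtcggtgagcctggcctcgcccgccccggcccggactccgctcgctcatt

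The match begins 83 bases before the start site in Echs1 and 77 before it in Etfa, and 6 bases after it in Slc25a20, each with 2 mismatches.

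In subcutaneous fat on HFD fewer of the genes passed. Of the 32 genes 13 rose and 0 fell in KO, against 7.32% of all genes tested called higher and 11.6% lower; the count of lower calls was 0 with DESeq2 as well, and 2 (with 10 higher) when libraries were scaled by their totals. The median log2 fold change was 0.32. Ppara, the receptor, had 10.1, 11.6 and 15.8 CPM (lowest, median and highest) in WT and 18.1, 23.2 and 33.2 in KO. It rose by 1.17 ± 0.17 (adjusted p = 8.26e-06 by edgeR), and the groups did not overlap. Eci3 had 3.26, 4.45 and 7.29 CPM in WT and 10.8, 13.3 and 14.5 in KO, a rise of 1.56 ± 0.23 (adjusted p = 1.02e-05 by edgeR), again without overlap. Hadha had 258, 309 and 319 CPM in WT and 368, 420 and 480 in KO, also without overlap, and rose by 0.65 ± 0.12 (adjusted p = 0.000378 by edgeR). Acadl rose by 0.73 ± 0.16 (adjusted p = 0.00128 by edgeR).

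Hadhb (0.70 ± 0.16), Acadvl (0.62 ± 0.15), Acaa2 (0.63 ± 0.16), Cpt2 (0.50 ± 0.14), Eci2 (0.38 ± 0.11), Acaa1b (0.63 ± 0.18), Etfdh (0.63 ± 0.19), Ehhadh (0.72 ± 0.23) and Acot2 (0.34 ± 0.12) were the other genes that rose there. Eci2, Ehhadh and Acot2 lost the call when libraries were scaled by their totals. Acaa2, Acaa1b and Acot2 lost it without the 4 WT libraries low in lymph node transcript (1 on chow, 3 on HFD), and Etfdh, Ehhadh and Acot2 without the libraries that stood apart from their group over all genes (here library 6 of WT and library 2 of KO on HFD). Cpt1a was not called in this depot (-0.17 ± 0.13), at 184 ± 48.1 CPM (SD, n = 7) in WT and 147 ± 12.5 (SD, n = 8) in KO. Of 59 other pathway genes 25 rose and 1 fell, including 12 of 16 citric acid cycle genes. Here 1 of 10 adipocyte markers rose and 1 fell (median 0.06), 7 of 10 macrophage markers fell (median -0.90) and 5 of 8 brown or beige fat markers rose (median 1.35); the part of these cells was not tested.

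The difference between the depots was tested itself. For 8 of the 32 genes the KO effect on HFD was larger in epididymal fat and for 0 it was smaller, against 7.76% and 6.87% of all genes. These were Cpt2 (difference of log2 fold changes 0.74 ± 0.18, adjusted p = 0.00444 by edgeR), Eci1 (0.74 ± 0.20, adjusted p = 0.00816), Echs1 (0.67 ± 0.19, adjusted p = 0.0117) and Etfb (0.69 ± 0.20, adjusted p = 0.0149), and further Acaa1a, Acads, Decr1 and Hadh, at 0.54 to 0.71. Without the liver-rich libraries Decr1 (0.54 ± 0.19, adjusted p = 0.0571 by edgeR) and Hadh (0.54 ± 0.19, adjusted p = 0.0646) were not called, with differences close to the 0.54 and 0.55 given by all libraries, and Hadh was not called without epididymal KO HFD library 4 (0.50 ± 0.18, adjusted p = 0.0573).

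**Figure D3:**
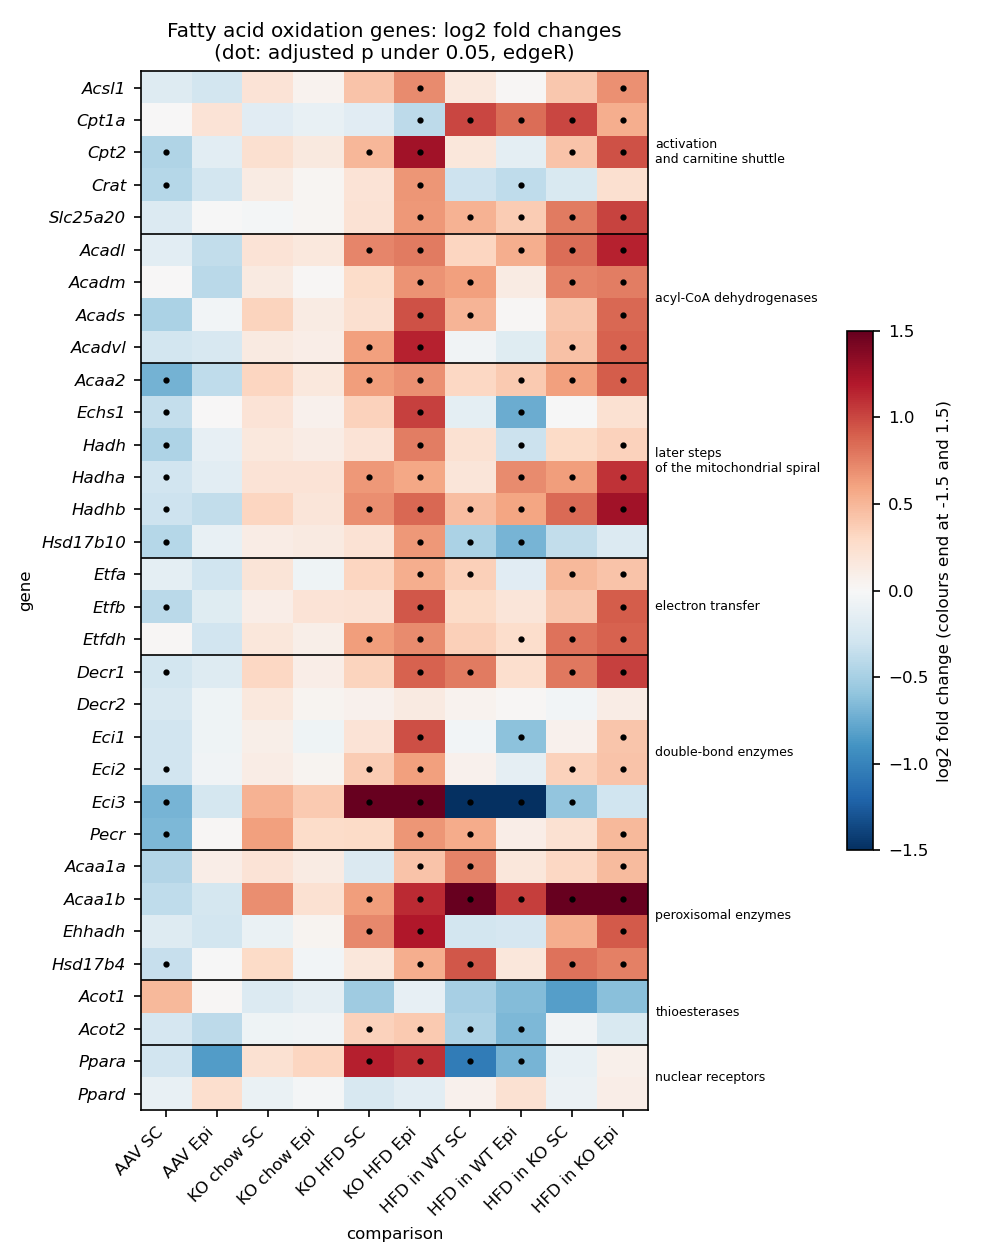
Log2 fold changes of the 32 genes (rows, by role) in 10 comparisons (columns: mInhbe minus GFP, KO minus WT on each diet, HFD minus chow in each genotype; SC subcutaneous, Epi epididymal). Red is higher and blue lower, colours end at 1.5 in size, and a dot marks an adjusted p under 0.05; the column for KO on HFD in epididymal fat is red with dots in 28 rows, with Cpt1a blue.

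On chow no gene of the set was called for KO against WT. In subcutaneous fat 0 of 32 were called by edgeR, against 0.134% of all genes higher and 0.12% lower. At an unadjusted p under 0.05 there were 7, all higher, and DESeq2 called 2. WT libraries 6, 7 and 8 held 15290 to 19080 CPM of summed adipocyte markers, the other WT libraries 25290 to 27640. Their macrophage sums were 1241 to 1933 CPM, those of the others 534 to 802. Summed over the 32 genes they had 5108 to 6891 CPM, the others 7415 to 8992. They enter every comparison with subcutaneous WT fat on chow, and their part was not tested. Pecr, a peroxisomal enoyl-CoA reductase, came nearest, with 8.62 ± 1.79 CPM (SD, n = 8) in WT and 12.7 ± 1.67 (SD, n = 7) in KO, a difference of 0.62 ± 0.15 (adjusted p = 0.0717 by edgeR). Acaa1b differed by 0.70 ± 0.18 (adjusted p = 0.103 by edgeR). In epididymal fat 0 of 32 were called, against 0.173% of all genes higher and 0.485% lower; 1 passed an unadjusted p under 0.05, and DESeq2 called 0. Cpt1a differed by -0.17 ± 0.13 in subcutaneous and -0.11 ± 0.07 in epididymal fat.

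The interaction of genotype with diet asked whether the KO effect was larger on HFD than on chow. In epididymal fat it was for 22 of the 32 genes, and for Cpt1a it was more negative, against 7.83% and 8.7% of all genes. Ehhadh (1.16 ± 0.20, adjusted p = 0.000109 by edgeR), Cpt2 (1.10 ± 0.20, adjusted p = 0.00022), Acadvl (1.06 ± 0.19, adjusted p = 0.000247) and Eci1 (1.03 ± 0.20, adjusted p = 0.000639) had the smallest p. Eci3 had the largest difference, 1.94 ± 0.38. The term for Cpt1a was -0.29 ± 0.10 (adjusted p = 0.0458 by edgeR) and was not called without the liver-rich libraries (adjusted p = 0.111) or with the replicate block (adjusted p = 0.0683). Crat, Hsd17b10 and Hadha were not called without the liver-rich libraries (adjusted p = 0.0507 to 0.0686 by edgeR). With the epididymis score in the fit these genes lost the call too (0.0568 to 0.0935). The counts were then 20 higher and 0 lower, and 19 higher and 1 lower. In subcutaneous fat 1 gene, Ppara, had a called interaction (0.94 ± 0.23, adjusted p = 0.0252 by edgeR) and 0 a negative one, against 0.387% and 1.75% of all genes. Without the libraries that stood apart Ppara was not called either (0.84 ± 0.24, adjusted p = 0.0511).

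The response to high-fat feeding was next compared in WT mice. This comparison shares its WT HFD libraries with that of KO against WT on HFD, so the values are set side by side and not correlated. In WT epididymal fat 8 of the 32 genes rose and 8 fell on HFD, against 28.9% and 25.2% of all genes, with a median of 0.02. The shares of the set, 8 of 32 each way, were close to the background. Cpt1a had 134, 159 and 171 CPM (lowest, median and highest) on chow and 210, 265 and 293 on HFD. It rose by 0.84 ± 0.07 (adjusted p = 1.88e-11 by edgeR), and no library overlapped. Hadha had 217, 242 and 257 CPM on chow and 326, 370 and 387 on HFD, a rise of 0.71 ± 0.08 (adjusted p = 3.23e-08 by edgeR) with no overlap. Acaa1b rose by 1.04 ± 0.18 (adjusted p = 1.15e-05 by edgeR) and Hadhb by 0.59 ± 0.12 (adjusted p = 0.000117 by edgeR).

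Eci3 fell furthest in that depot: its libraries had 15.4, 19.1 and 26.4 CPM on chow and 0.975, 2.83 and 9.97 on HFD. The log2 fold change was -2.24 ± 0.28 (adjusted p = 6.18e-08 by edgeR), and the groups did not overlap. Acot2 fell by 0.67 ± 0.11 (adjusted p = 9.12e-06 by edgeR), Hsd17b10 by 0.70 ± 0.12 (adjusted p = 1.37e-05 by edgeR) and Echs1 by 0.74 ± 0.14 (adjusted p = 4.24e-05 by edgeR). Eci1 (-0.61 ± 0.14), Ppara (-0.70 ± 0.20), Hadh (-0.32 ± 0.12) and Crat (-0.38 ± 0.15) fell as well. Within the later steps of the cycle, then, 3 genes rose (Hadha, Hadhb and Acaa2) and 3 fell (Echs1, Hadh and Hsd17b10). Without the liver-rich WT HFD libraries Acaa2, Etfdh, Hadh and Crat were not called, leaving 6 higher and 6 lower, and the fall of Ppara was 1.14 ± 0.13 in size. In the same comparison 9 of 10 macrophage markers rose and 1 fell (median 2.37) and 7 of 10 adipocyte markers fell (median -0.94), and their part was not tested.

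In WT subcutaneous fat 11 of the 32 genes rose and 4 fell on HFD, against 22.6% and 21.5% of all genes. By library totals the split was 9 higher and 6 lower, and without the libraries low in lymph node transcript it was 14 and 2. Acaa1b had 7.57, 12.9 and 15.9 CPM (lowest, median and highest) on chow and 27.8, 33.8 and 60.1 on HFD, which did not overlap. Its rise of 1.88 ± 0.18 (adjusted p = 1.77e-09 by edgeR) was the largest of the set. Cpt1a had 78.3, 97.9 and 139 CPM on chow and 112, 196 and 231 on HFD; the groups overlapped, and the rise was 1.00 ± 0.13 (adjusted p = 3.08e-07 by edgeR). Hsd17b4, the peroxisomal bifunctional enzyme for branched chains, had 195, 280 and 317 CPM on chow and 319, 468 and 519 on HFD, a rise of 0.93 ± 0.13 (adjusted p = 9.66e-07 by edgeR) without overlap. Decr1 rose by 0.78 ± 0.15 (adjusted p = 0.000104 by edgeR). The genes that fell were Eci3 (-1.63 ± 0.23, adjusted p = 1.18e-06 by edgeR), Ppara (-1.05 ± 0.17, adjusted p = 9.74e-06), Acot2 (-0.46 ± 0.12, adjusted p = 0.00188) and Hsd17b10 (-0.48 ± 0.14, adjusted p = 0.00626). Without the libraries low in lymph node transcript Hsd17b10 (-0.20 ± 0.14, adjusted p = 0.279 by edgeR) and Acot2 (-0.35 ± 0.14, adjusted p = 0.0512) were the falls no longer called. Summed adipocyte markers were 15290 to 27640 CPM on chow and 25130 to 39070 on HFD, and macrophage markers 534 to 1933 and 823 to 1817. The chow values include libraries 6, 7 and 8, described above, and the part of cell content was not tested.

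The response to HFD differed between the depots of WT mice for 12 of the 32 genes: it was lower in epididymal fat for 11 and higher for 1, Hadha (0.47 ± 0.14), against 17.3% and 16.1% of all genes. The peroxisomal Hsd17b4 (-0.81 ± 0.16, adjusted p = 4.65e-05 by edgeR), Acaa1b (-0.90 ± 0.25, adjusted p = 0.00329) and Acaa1a (-0.62 ± 0.18, adjusted p = 0.00636) were among the 11, with Echs1 (-0.64 ± 0.19, adjusted p = 0.00559). The rise of Cpt1a was not called as different between the depots.

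In KO epididymal fat 23 of the 32 genes rose and 0 fell on HFD, against 24.7% and 13.9% of all genes, with a median of 0.62. DESeq2 called 23 higher and 1 lower, scaling by library totals gave 19 and 2, and leaving out library 4 of the KO HFD group gave 20 and 2. Acot2 was not called in the main fit. In plain CPM its libraries had 17.3 to 21.3 on chow and 10.7 to 16.7 on HFD, without overlap. TMM moved this comparison up by 0.24 (log2) from plain CPM. Hadha had 245, 266 and 286 CPM (lowest, median and highest) on chow and 427, 476 and 527 on HFD, a rise of 1.08 ± 0.09 (adjusted p = 1.3e-10 by edgeR) without overlap. Acaa1b had 26.8, 34.7 and 39.5 CPM on chow and 81.2, 103 and 164 on HFD, a rise of 1.93 ± 0.19 (adjusted p = 3.5e-09 by edgeR). Hadhb had 251.1, 295.4 and 316.9 CPM on chow and 506.3, 568.2 and 674.5 on HFD, a rise of 1.26 ± 0.13 (adjusted p = 4.66e-09 by edgeR). None of these groups overlapped. Acadl rose by 1.16 ± 0.13 (adjusted p = 2.86e-08 by edgeR) and Cpt1a by 0.55 ± 0.07, beside 0.84 ± 0.07 in WT; the test of that difference is the interaction given above. Pecr, Eci1 and Hadh were not called without library 4 of the KO HFD group. With the epididymis score in the fit 19 genes were called, and Etfa, Pecr, Eci1 and Hadh were not. In this comparison 6 of 10 macrophage markers rose and 1 fell (sums of 678 to 1119 CPM on chow and 1027 to 2373 on HFD), 6 of 8 brown or beige fat markers rose (22.3 to 46.4 and 53.6 to 87.9 CPM), 4 of 5 mesothelial markers fell (135 to 314 and 20.4 to 170.1 CPM), and 3 of 10 adipocyte markers rose and 1 fell; their part was not tested.

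In KO subcutaneous fat 15 genes rose and 1 fell on HFD, against 11.7% and 9.05% of all genes, and by library totals 11 rose and 6 fell. Acaa1b (1.81 ± 0.18, adjusted p = 1.91e-08 by edgeR), Cpt1a (1.00 ± 0.13, adjusted p = 1.12e-06), Hsd17b4 (0.82 ± 0.13, adjusted p = 2.73e-05) and Slc25a20 (0.78 ± 0.13, adjusted p = 3.86e-05) had the smallest p. The gene that fell was Eci3 (-0.59 ± 0.21, adjusted p = 0.0454 by edgeR), whose call was lost with the replicate block (adjusted p = 0.0824) and without the library rich in muscle transcript (adjusted p = 0.061). Acaa1b, Cpt1a, Hadhb and Slc25a20 were called higher on HFD in both depots of both genotypes; in WT subcutaneous fat Hadhb lost the call by library totals (adjusted p = 0.072 by edgeR), with the lymph node score in the fit (0.0778) and with only the compared groups (0.0707).

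**Figure D4:**
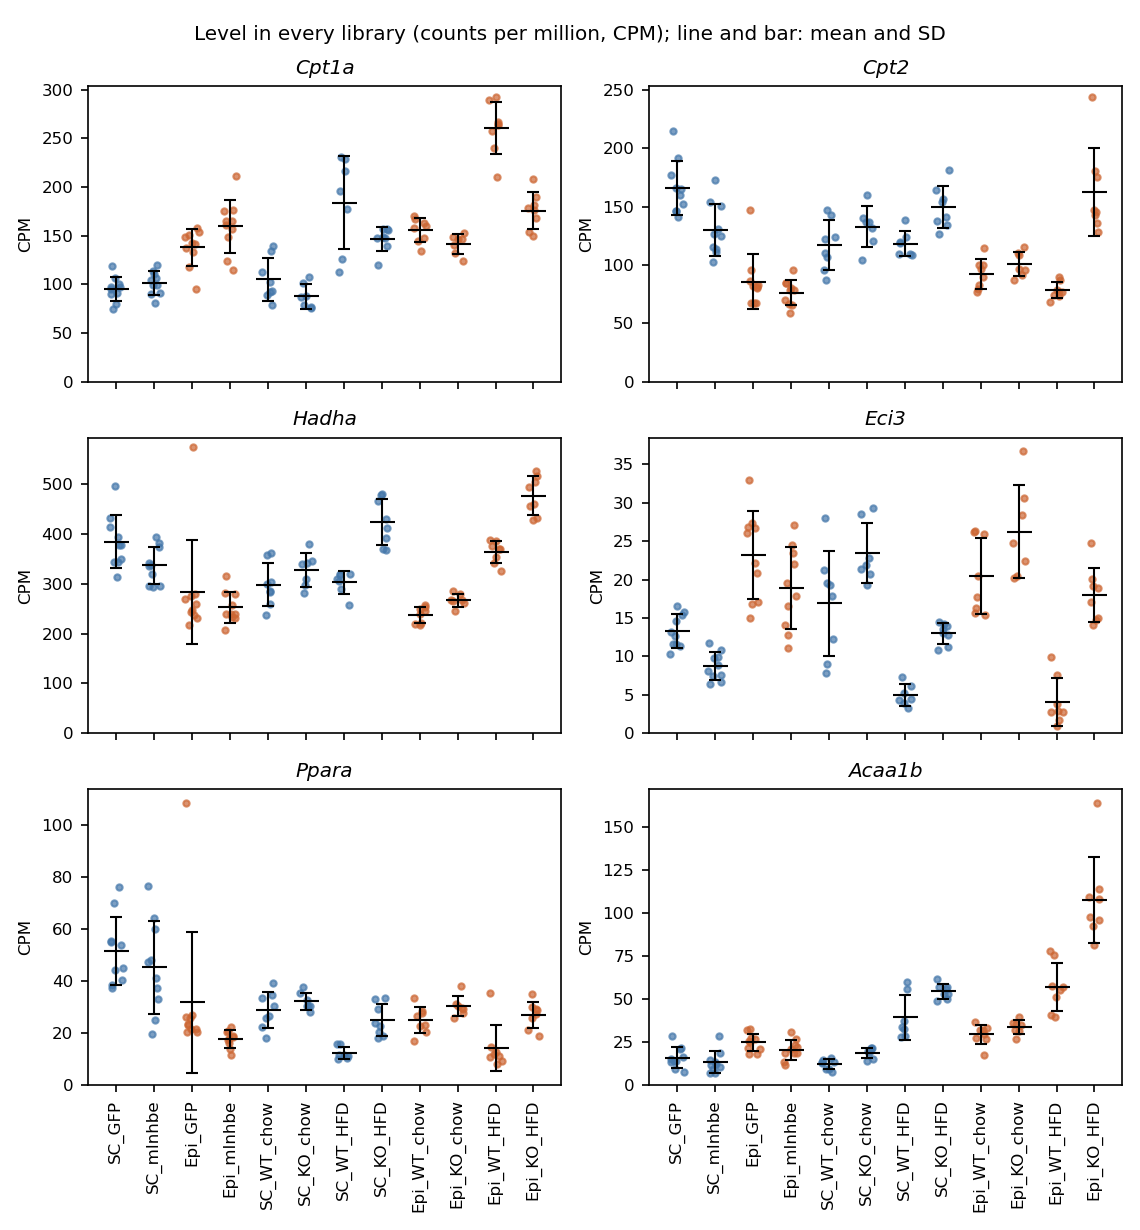
CPM of 6 genes in each library (points, blue subcutaneous, orange epididymal) of the 12 groups, with the mean and SD of the group. Cpt1a is highest in the epididymal WT HFD group and lower in the KO HFD group beside it, while Cpt2, Hadha, Eci3 and Acaa1b are higher in that KO group than in WT; epididymal GFP library 8 stands alone at the top for Hadha and Ppara.

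More Inhbe from the vector, in chow-fed mice, went with lower levels of part of the set in subcutaneous fat. Of the 32 genes 14 fell and 0 rose, against 11.4% of all genes lower and 15.8% higher; no rise was called by DESeq2 either, and of the 18 genes at an unadjusted p under 0.05 all were lower. The median log2 fold change was -0.29, and all 6 genes of the later mitochondrial steps were among the 14. Pecr had 8.72, 10.1 and 11.0 CPM (lowest, median and highest) with GFP and 5.55, 6.72 and 8.11 with mInhbe. Every mInhbe library was below every GFP library, and Pecr fell by 0.67 ± 0.08 (adjusted p = 4.83e-05 by edgeR). Acaa2 had 144, 169 and 233 CPM with GFP and 88.5, 110 and 155 with mInhbe, and fell by 0.71 ± 0.12 (adjusted p = 0.000479 by edgeR) with overlapping groups. Eci3 had 10.3, 12.9 and 16.6 CPM with GFP and 6.36, 8.51 and 11.8 with mInhbe, also overlapping, and fell by 0.70 ± 0.12 (adjusted p = 0.000841 by edgeR). Hsd17b10 fell by 0.43 ± 0.09 (adjusted p = 0.00282 by edgeR).

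The other genes that fell were Eci2, Echs1, Hadh, Cpt2, Hsd17b4, Hadha, Decr1, Hadhb, Etfb and Crat, by 0.28 to 0.46 on the log2 scale. Crat was near the threshold (adjusted p = 0.049 by edgeR) and lost the call with RLE size factors, without the low-count filter, with the replicate block, by library totals and without the libraries that stood apart (adjusted p = 0.0525 to 0.108). Cpt1a (0.00 ± 0.07), Acadm (0.01 ± 0.08) and Etfdh (0.02 ± 0.09) were not called. Lymph node markers differed between these groups, as given above, and when the score of those markers entered the fit 2 genes kept the call, Pecr (-0.62 ± 0.10, adjusted p = 0.0016 by edgeR) and Acaa2 (-0.43 ± 0.10, adjusted p = 0.0249). By library totals 10 were called lower. Adipocyte markers fell for 5 of 10 (median -0.41), and their part was not tested. Of 59 other pathway genes 21 fell and 3 rose. Among those that fell were 13 of 16 citric acid cycle genes, such as Sdhb (-0.61 ± 0.09) and Suclg1 (-0.44 ± 0.07), and the long-chain synthetases Acsl3 (0.67 ± 0.13) and Acsl4 (0.83 ± 0.19) rose.

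The vector and knockout experiments share no library. Of the 14 genes that were lower with mInhbe in subcutaneous fat, 6 were higher in KO subcutaneous fat on HFD: Acaa2, Cpt2, Eci2, Eci3, Hadha and Hadhb. They are 42.9% of the 14, where 13 of the 32 were higher in KO. They are 46.2% of the 13, where 14 of the 32 were lower with mInhbe. Both shares are close to those of the whole set, so this overlap is not a result about the 6 genes. All 14 genes lower with mInhbe were higher in KO epididymal fat on HFD, where 28 of the 32 were.

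In epididymal fat 0 of the 32 genes were called with mInhbe, against 0.761% of all genes higher and 0.404% lower. At an unadjusted p under 0.05 there were 7, 5 lower and 2 higher, and DESeq2 called 1. The median log2 fold change was -0.17. It was -0.02 without the libraries that stood apart and -0.04 without the muscle-rich GFP library 8. Acot2 (-0.39 ± 0.12, adjusted p = 0.152 by edgeR) came nearest. Its GFP values include library 8 at 29.1 CPM, where the group's median was 17.6. Ppara had 31.7 ± 27.1 CPM (SD, n = 10) with GFP and 17.6 ± 3.29 (SD, n = 10) with mInhbe, a difference of -0.84 ± 0.27 (adjusted p = 0.192 by edgeR). The GFP values include library 8 at 108 CPM, where the group's median was 23.2. Between depots the vector's effect was called as different for 1 gene, Pecr (0.68 ± 0.15, adjusted p = 0.013 by edgeR), higher in epididymal fat, and for 0 in the other direction, against 4.09% and 9.41% of all genes; with the replicate block its adjusted p was 0.0552.

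The depots were compared under both control conditions. In GFP mice 4 of the 32 genes were higher and 18 lower in epididymal than in subcutaneous fat, against 35.8% and 28.7% of all genes. In WT mice on chow 6 were higher and 6 lower, against 24.5% and 18.7%, which is no more than the background in the first direction and close to it in the second; without the low-count filter the counts were 5 and 9. Acot1 had 0.802, 1.29 and 2.57 CPM (lowest, median and highest) in subcutaneous and 2.39, 8.48 and 16.5 in epididymal GFP fat. It was higher by 2.72 ± 0.28 (adjusted p = 4.37e-11 by edgeR), with a small overlap, and by 2.69 ± 0.44 (adjusted p = 1.3e-06 by edgeR) in WT mice on chow. Epididymis markers differ between the depots as well: the GFP library with 3.32 CPM of them, library 7, had the lowest Acot1 of its group, 2.39 CPM. In WT mice on chow epididymal libraries 6 and 7, with 16.6 and 2.92 CPM of these markers, had 7.54 and 8.17 CPM of Acot1, while libraries 2 and 4, with 3.95 and 0.867 CPM, had 0.291 and 1.03. The part of epididymis transcript in the Acot1 difference was not tested. Acsl1 had 2706, 3276 and 4242 CPM in subcutaneous and 1227, 1593 and 2039 in epididymal GFP fat, which did not overlap, and was lower by 1.11 ± 0.12 on the log2 scale (adjusted p = 4.72e-11 by edgeR). Cpt2 had 141, 163 and 215 CPM in subcutaneous and 67.2, 81.6 and 147 in epididymal GFP fat (-1.03 ± 0.12, adjusted p = 1.82e-09 by edgeR). Cpt1a was higher in epididymal fat in both (0.47 ± 0.08 and 0.62 ± 0.10), so that its depot difference ran opposite to that of Cpt2, which was -0.32 ± 0.13 in WT mice on chow.

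Some members are near copies, so that reads may have been split between them. Over the longest open reading frame Acaa1a and Acaa1b were 96.5% identical, Acot1 and Acot2 95.2% and Eci2 and Eci3 89.5%. Acot2 and Acot1 lie 15624 bases apart on chromosome 12, and Eci3 and Eci2 13759 apart on chromosome 13. The values of these 6 genes are therefore uncertain to that extent. In subcutaneous fat Acot1 rested on 3.3 to 90 estimated counts per library.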

How the data were processed

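Polyadenylated RNA of 101 fat libraries was sequenced. Per the labels' protocols, libraries were made with a KAPA kit from 500 ng of RNA with 14 PCR cycles and read over 76 cycles, paired end. The authors deposited estimated counts per gene; the build was mm10, per the submitters' processing notes, and for the aligner and the counter the sources used here give no name. Of the values 2.94% were not whole (tolerance 1e-06). The design had assumed whole counts; estimated counts were rounded first. Of 24475 gene identifiers 24375 had a symbol and 100 did not. The series' text gives another number for subcutaneous WT mice on HFD than the 7 libraries labelled; the labels were followed.

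Genes were kept by edgeR's filterByExpr (minimum count 10, total 15), scaled by TMM and tested with edgeR 4.0.16 (quasi-likelihood, R 4.3.3, limma 3.58.1), per depot for group comparisons and over both depots for depot terms; DESeq2 1.42.0 was an alternative. The SE of a log2 fold change is its size divided by the root of F. All 17 comparisons were adjusted by Benjamini-Hochberg over all genes tested, and each p-value sets a difference against the spread between libraries. Alternatives were other scalings, no low-count filter, a replicate block, lymph node and epididymis scores as covariates, the compared groups only, and sets of libraries left out. Scripts were tested on simulated data. Motifs were searched in RefSeq promoter windows of GRCm38.p6 (Python 3.11.15, numpy 2.4.6, pandas 2.3.3, Biopython 1.88; figures with matplotlib 3.10.9). The members, lists and alternatives were chosen with earlier results of these data known. Named genes follow a rule: called members with their fold change, full statistics for at most 4 per direction by smallest p, and library values for at most 3. The library values of Cpt1a in KO and WT epididymal fat on HFD were added after they were seen.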

Additional observations from a re-analysis of the deposited data

Results flagged for a closer look

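In each group and for each of the 32 genes, the highest and the lowest library were compared with the rest by Dixon's ratio on log2(CPM + 1). Of 384 such groups 42 held a library that stood apart, in 16 libraries; chance flags about 1 in 20 groups. Epididymal GFP library 8 was high in 10 genes, among them Ppara (108 CPM, group median 23.2), Hadhb (768, median 232.9) and Acadl (638, median 219.3). It is also the library with the group's highest sums of brown fat and muscle markers; their part was not tested. Epididymal KO HFD library 4 stood apart in 10 genes, high in 9, such as Echs1 (338 CPM, median 206.9), and low in Etfa (174, median 310.4). Subcutaneous WT HFD library 6 stood apart in 5 genes, low in Acadl (225 CPM, median 418.8), Hadhb and Hsd17b4 and high in Acads (186, median 100.2) and Crat. Subcutaneous GFP library 2 was high in 3 genes (Acaa1a, Etfb and Ppard). Epididymal WT chow library 5 and subcutaneous WT HFD library 3 stood apart in 2 genes each. The 10 libraries that stood apart in 1 gene each were epididymal GFP 7, epididymal WT HFD 2, 3 and 5, subcutaneous GFP 6, KO HFD 4, KO chow 5 and WT chow 1, and subcutaneous mInhbe 4 and 5.

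Effects that differed between groups by the test of the difference itself were those of the vector between depots (1 gene, Pecr), of KO on HFD between depots (8 genes), of HFD in WT mice between depots (12 genes), and of KO between diets in subcutaneous (1 gene, Ppara) and epididymal fat (23 genes).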

How the results depend on the processing

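No called gene reversed its direction in any alternative run. The count of called genes stayed within 1.5 times its value in all 17 comparisons with RLE size factors, without the low-count filter and with library totals in place of TMM, although library totals took the call from 23 of 205 single results. The lymph node score as covariate took the vector's effect in subcutaneous fat from 14 called genes to 2. DESeq2 called 1 gene for the vector in epididymal fat, 2 for KO on chow in subcutaneous fat and 2 for genotype by diet in subcutaneous fat, where edgeR called 0, 0 and 1. Without the libraries that stood apart these became 2 for the vector between depots (from 1), 1 for KO on chow and 0 for genotype by diet in subcutaneous fat. Without the libraries low in lymph node transcript KO on chow gave 2. Without the muscle-rich libraries the vector between depots gave 4. Library totals, leaving out liver-rich or muscle-rich libraries and leaving out epididymal KO HFD library 4 were chosen after seeing the data.

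The labels do not say whether equal replicate numbers in the 2 depots are the same mouse. Same-numbered libraries of the 2 depots had median correlations of -0.0995 (mInhbe) to 0.0888 (WT on chow). The best match was the own number in 3 of 10 GFP, 0 of 10 mInhbe and 2 of 8 WT chow pairs. Such weak correlations cannot show whether the depots were paired, and the main depot fits took the libraries as unpaired. The replicate block took the vector's difference between depots from 1 gene to 0 and left the other 16 counts within 1.5 times. Depth limits Acot1 in subcutaneous fat most, with as few as 3.3 estimated counts in a library.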
